A study of Mus musculus with 14 samples.

Results

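Rab30 and Paqr9 were followed in the duodenal mucosa of male C57BL6 mice at 7 conditions, as 2 genes of the 18193 that the array annotation named singly. Every probe set that the platform annotation assigned to Rab30 or Paqr9 alone was taken, which gave 2 probe sets for each gene. The genes were chosen by their measured pool means over these same conditions, so their values are given as a description, with no test. The mice, 12 wk old at purchase, ate a LF diet for 2 wk and were fasted for 12 h. They then ate a powdered HF meal (60% of calories from fat) or LF meal (10%) freely for 30 min, 1 h or 3 h until they were killed (pools HF30min, HF1h, HF3h, LF30min, LF1h and LF3h), or were killed with no meal (Fasting). Per the methods, all conditions were sampled in the same morning hours, and the start of each meal was shifted to allow this. Each condition was a single pool of RNA from 20 mice, hybridised to 2 Affymetrix MOE 430 v2.0 arrays. The errors and p-values below therefore cover array error only, and no pool was repeated with other mice. Values are the authors' log2 intensities after Robust Multiarray Analysis (RMA), on which the medians of the 14 arrays lay near 4.5.

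Rab GTPases are small switch proteins that bind GTP on a membrane and recruit the factors that move, tether and fuse vesicles. Rab30 resides on the Golgi, the organelle through which enterocytes of the duodenum pass the chylomicrons that carry dietary fat. Paqr9 belongs to the progestin and adipoQ receptor (PAQR) family of multi-pass membrane proteins, which also holds the adiponectin receptors, and it is counted among the membrane progestin receptors. In mouse liver both genes have been linked to the fasting response, Rab30 as a transcript raised by fasting and Paqr9 as a protein that affects the stability of the fatty acid sensor PPARα. Rab30 lies on chromosome 7 (GRCm38.p6, positions 92741637 to 92844535, gene ID 75985) and Paqr9 on chromosome 9 (positions 95559634 to 95568022, gene ID 75552).

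Rab30 was highest 3 h after the HF meal, and it was lowest in the Fasting and LF30min pools, which overlapped. On its brighter probe set, 1426452_a_at, the 2 arrays read 7.23 and 7.46 at Fasting, 8.05 and 8.0 at HF30min, 8.81 and 8.95 at HF1h, and 11.09 and 10.97 at HF3h. After the LF meal the same probe set read 7.30 and 7.41 at LF30min, 8.67 and 8.69 at LF1h, and 9.12 and 9.16 at LF3h. All fed arrays from 1 h onward, and both HF30min arrays, lay above both Fasting arrays, while the LF30min arrays fell among them. The HF3h mean of 11.03 ± 0.083 (SD, n = 2 arrays) was 12.8-fold above the Fasting mean of 7.35 ± 0.16, a log2 difference of 3.68. At LF3h the mean was 9.14 ± 0.03, which was 3.46-fold above Fasting (log2 difference 1.79). The SD between arrays of a pool, pooled over the 7 pools, was 0.085 for this probe set.

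**Figure D1:**
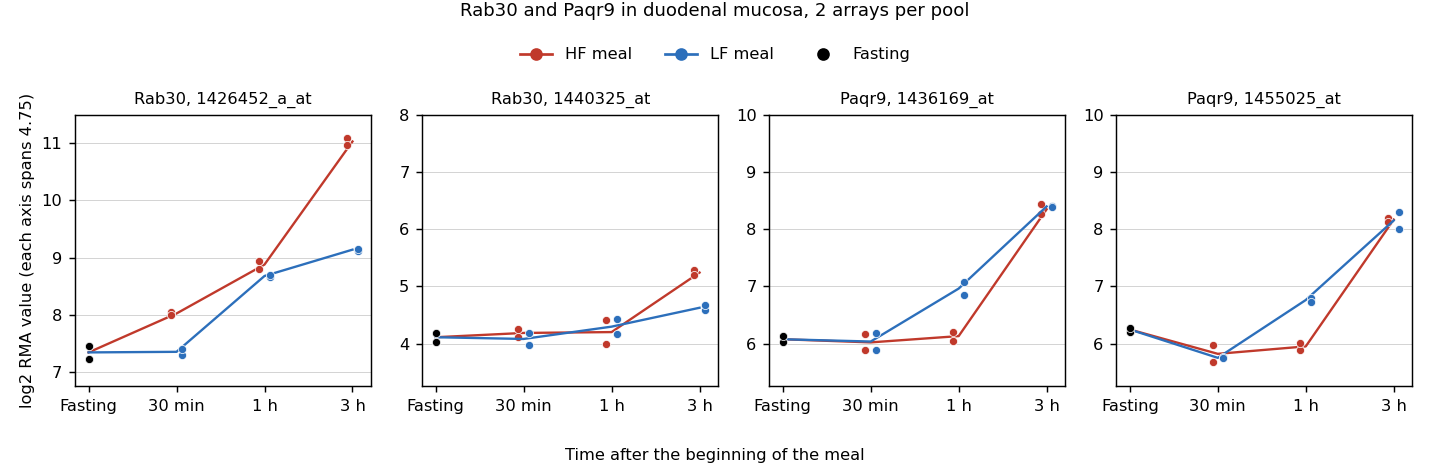
Log2 RMA value of each probe set of Rab30 and Paqr9 (vertical axes, which start above 0 and span the same range) at Fasting and along the HF (red) and LF (blue) time courses, whose 3 times are counted from the start of eating. Each dot is 1 array and each line joins the means of the 2 arrays of a pool. Rab30 separates the meals at 3 h (11.03 at HF3h and 9.14 at LF3h on 1426452_a_at), and Paqr9 separates them at 1 h (6.13 at HF1h and 6.96 at LF1h on 1436169_at).

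Ordered from the lowest, the Rab30 means ran Fasting, LF30min, HF30min, LF1h, HF1h, LF3h and HF3h. Fasting and LF30min overlapped, and no other neighbours in this order did. The smallest gap between neighbours that did not overlap was 0.19, between HF1h and LF1h, or 2.2 times the pooled SD. The widest was 1.89, between HF3h and LF3h. The time courses differed in shape. At 1 h, 74.7% of the 3 h log2 difference from Fasting was already present after the LF meal, against 41.6% after the HF meal. Between 1 h and 3 h the mean was higher by a further 2.15 after the HF meal and by 0.45 after the LF meal. The difference from Fasting was thus not limited to 3 h, and the step from 1 h to 3 h was where the HF pools moved most.

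The HF pool exceeded the LF pool for Rab30 at each time, unevenly. At 30 min the log2 difference was 0.67 (8.02 at HF30min and 7.36 at LF30min), which is 1.59-fold. At 1 h it was 0.19 (8.88 at HF1h and 8.68 at LF1h). At 3 h it was 1.89, or 3.71-fold. The arrays of the HF and LF pools did not overlap at any of the 3 times.

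The other Rab30 probe set, 1440325_at, was dim, with all 14 arrays under 6. It read 5.28 and 5.20 at HF3h, 4.58 and 4.67 at LF3h, and 4.19 and 4.03 at Fasting, so that HF3h was again highest and LF3h next. The log2 differences from Fasting were 1.13 at HF3h and 0.52 at LF3h, against 3.68 and 1.79 on the brighter probe set. At 30 min and 1 h its fed arrays overlapped the Fasting arrays after both meals, with differences between -0.03 and 0.19. It did not repeat the early differences of the brighter probe set, and at 1 h its HF mean was below its LF mean (4.2 at HF1h and 4.29 at LF1h), within the spread of the arrays. Over the 7 pool means the 2 probe sets correlated at 0.939, a description of pools that share their arrays.

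Paqr9 was highest 3 h after either meal, at nearly the same level. On 1436169_at, its brighter probe set, the arrays read 6.02 and 6.13 at Fasting, 5.88 and 6.16 at HF30min, 6.05 and 6.21 at HF1h, and 8.26 and 8.43 at HF3h. After the LF meal they read 5.89 and 6.18 at LF30min, 7.08 and 6.84 at LF1h, and 8.40 and 8.39 at LF3h. The arrays of both 3 h pools and of LF1h lay above both Fasting arrays, and those of both 30 min pools and of HF1h overlapped them. The HF3h mean of 8.35 ± 0.126 (SD, n = 2 arrays) was 4.83-fold above the Fasting mean of 6.07 ± 0.078, a log2 difference of 2.27. The LF3h mean of 8.39 ± 0.009 was 4.99-fold above Fasting (log2 difference 2.32). The difference between HF3h and LF3h, -0.05, was 0.3 of the pooled SD of 0.144.

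Paqr9 thus separated the meals at 1 h and not at 3 h. At 1 h the HF pool was lower than the LF pool by a log2 difference of -0.83 (6.13 at HF1h and 6.96 at LF1h), and the arrays did not overlap. Of the 3 h difference from Fasting, 38.2% was present at 1 h after the LF meal and 2.44% after the HF meal. Between 1 h and 3 h the mean was higher by 2.22 after the HF meal and by 1.43 after the LF meal. In order, HF30min, LF30min, Fasting and HF1h formed a low group in which neighbours overlapped, LF1h stood alone, and HF3h and LF3h overlapped at the top.

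The second Paqr9 probe set, 1455025_at, repeated this pattern. It read 8.20 and 8.13 at HF3h, 8.0 and 8.30 at LF3h, and 6.21 and 6.28 at Fasting, with log2 differences from Fasting of 1.92 at HF3h and 1.9 at LF3h. At 1 h the HF pool was again below the LF pool, by -0.81 (5.95 at HF1h and 6.76 at LF1h). It differed from 1436169_at at the early times. Its arrays lay below both Fasting arrays at HF30min, HF1h and LF30min, with differences of -0.42, -0.29 and -0.49, where 1436169_at had -0.06, 0.06 and -0.04. The 2 probe sets correlated at 0.991 over the 7 pool means.

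A further probe set, 1436168_at, was annotated to Paqr9 together with C730029A08Rik and was left out for that reason. RefSeq lists C730029A08Rik and Blnc1, the name of a long noncoding RNA, among the synonyms of Paqr9, so which transcript the probe set reads is not settled by these tables. Its means were 7.72 at HF3h, 7.78 at LF3h and 6 at Fasting, and 6.07 at HF1h against 6.84 at LF1h. It followed 1436169_at at a correlation of 0.996, and both carry the same GenBank accession in the annotation. The same doubt therefore holds for 1436169_at, which stands for Paqr9 here although it is annotated to Paqr9 alone.

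Rab30 and Paqr9 therefore differed in what separated the meals. For Rab30 the HF pool was the higher at 3 h, and for Paqr9 the HF pool was the lower at 1 h. Their representative probe sets correlated at 0.811 over the 7 pool means. Among 183 genes with a highest pool mean of at least 6 and a range of at least 1 (log2), 25 followed Rab30 more closely than Paqr9 did, and 28 followed Paqr9 more closely than Rab30 did.

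The genes most like Rab30 in their 7 pool means were Gas2l3, which encodes a linker of actin and microtubules (r = 0.987), Creld2, an endoplasmic reticulum protein of the stress response (0.973), Ptger4, the prostaglandin E2 receptor EP4 (0.971), Zfp719, a zinc finger gene (0.965), and Cidec, which promotes lipid droplet fusion (0.958). These r values describe 7 pools and carry no p, and the genes were picked for their likeness. Gas2l3 read 7.99 and 7.92 at HF3h, 7.30 and 7.47 at LF3h, and 6.25 and 6.45 at Fasting. Its log2 difference from Fasting was 1.61 at HF3h and 1.04 at LF3h, and its 2 other probe sets had r values of 0.959 and 0.979. All of these genes spanned less than Rab30 did, with ranges of 1.01 to 1.61 between pools. The second probe set of Zfp719, at a mean of 3.45, had an r of 0.323. Zfp719 met the minimum pool mean of 6 only through HF3h (6.02), the pool where Rab30 was highest. Its other pool means were 4.97 to 5.5.

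The genes most like Paqr9 were Per2, a repressor in the circadian clock (r = 0.986), Edaradd, an adaptor of the ectodysplasin receptor (0.969), Dipk2a, a Golgi protein kinase-like gene (0.955), Ccne2, the cyclin E2 gene (0.953), and Ero1a, an oxidase of the endoplasmic reticulum (0.951). Per2 read 7.97 and 8.09 at HF3h, 8.17 and 8.18 at LF3h, and 6.30 and 6.60 at Fasting. Like Paqr9 it was higher at LF1h, with 7.14 and 6.88, than at HF1h, with 6.72 and 6.85, though the nearest arrays almost met. The log2 difference of HF1h from LF1h was -0.23 for Per2, against -0.83 for Paqr9. The other probe sets of Per2 followed Paqr9 at 0.915 and 0.691. The probe sets of Edaradd disagreed, at -0.239 to 0.969. Dipk2a differed from Paqr9 at 1 h, where it lay 0.07 above Fasting at HF1h and 0.12 at LF1h. Ccne2 met the minimum pool mean of 6 only through LF3h (6.58) and HF3h (6.09), with 5.09 to 5.54 in the other pools. Edaradd met it only through LF1h (6.06), LF3h (6.71) and HF3h (6.39). In these same pools Paqr9 stood above Fasting.

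**Figure D2:**
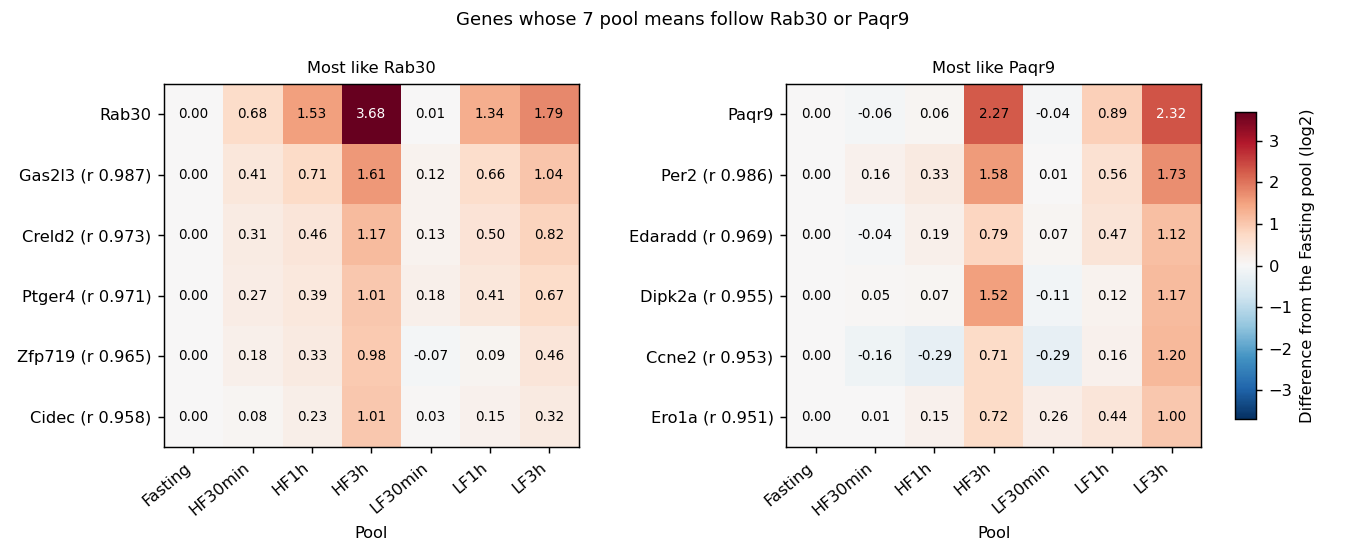
Difference of each pool mean from the Fasting pool (log2, colour and printed value) for Rab30 and Paqr9 (top rows) and the 5 genes most like each, with Pearson r over the 7 pool means beside the name. Columns are the pools, Fasting first, then the HF and the LF time courses. The genes beside Rab30 are highest at HF3h, and of those beside Paqr9 all except Dipk2a are highest at LF3h.

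The rest of the Rab family did not share the size of the Rab30 difference. At HF3h against Fasting, 58 other Rab GTPase genes had log2 differences of -0.48 to 0.37, and at LF3h of -0.43 to 0.38. These ranges cover the brightest probe set of each gene. A gene was called at an adjusted p under 0.05 in limma. At HF3h, 1 of the 58 rose and 2 fell, where 2.97% of all genes were called higher and 3.7% lower. At LF3h, 1 rose and 1 fell, against 3.13% called higher and 2.28% lower among all genes. The family's median was 0.031 at HF3h and 0.019 at LF3h, beside -0.003 and -0.024 for all genes. The counts were 10 at HF3h and 4 at LF3h when the prior variance was allowed to follow intensity.

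Rab43, another Rab GTPase of the Golgi, fell after both meals. It read 8.17 and 8.11 at HF3h, 8.18 and 8.19 at LF3h, and 8.54 and 8.69 at Fasting, so both 3 h pools lay below Fasting. The log2 differences were -0.48 at HF3h (adjusted p = 0.0034) and -0.43 at LF3h (adjusted p = 0.0088). Without Fasting replicate 2 neither call held, with adjusted p of 0.055 at HF3h and 0.098 at LF3h, where each LF3h array also decided the call. Its other probe sets read -0.63 and -0.12 at HF3h and -0.81 and -0.04 at LF3h.

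Rab17, a Rab GTPase of polarised epithelia, had -0.38 at HF3h (adjusted p = 0.032), and Rab27b, which serves secretory granules, had 0.38 at LF3h (adjusted p = 0.038). Neither call held without any one of the 4 arrays of its 2 pools. Both calls were also lost with averaged probe sets, and that of Rab27b with the replicate block (adjusted p = 0.052). For Rab27b the same was true without either HF30min array, and the adjusted p reached 0.18 for both genes. Rab27b had 0.27 at HF3h and was not called there. The other probe sets of Rab27b had 0.62, 0.21 and -0.05 at HF3h and 0.59, 0.31 and 0 at LF3h, in the same order. Rab1a, of transport between the endoplasmic reticulum and the Golgi and named after its values were seen, rose by 0.35 at HF3h (adjusted p = 0.02). Compared directly, HF3h and LF3h differed in 1 of the 58 genes, Rab9, also named after its values were seen, which was higher at HF3h by 0.4 (adjusted p = 0.046), beside 1.19% called higher and 1.01% called lower among all genes. With an array left out, that count was 0 in 12 of the 14 cases. At HF3h against Fasting, no Rab gene was called without Fasting replicate 2, 1 without Fasting replicate 1 or HF3h replicate 1, and 2 without HF3h replicate 2.

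**Figure D3:**
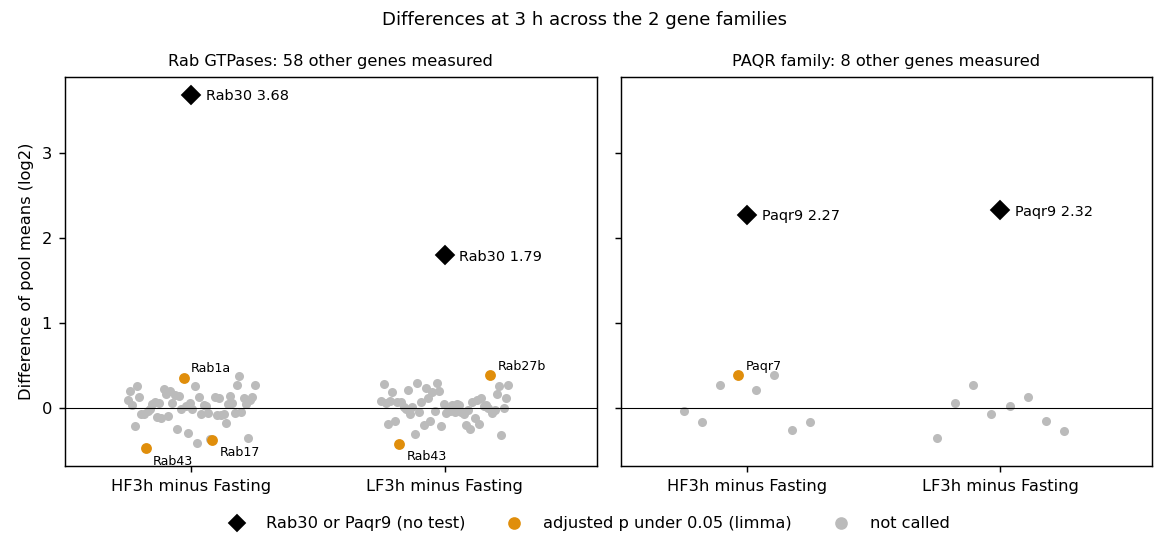
Log2 difference of pool means at 3 h (vertical axis) for Rab30 and 58 other Rab GTPase genes (left) and Paqr9 and 8 other PAQR genes (right), HF3h minus Fasting beside LF3h minus Fasting. Diamonds are Rab30 and Paqr9, orange points were called at an adjusted p under 0.05 in limma, grey points were not, and horizontal position within a column has no meaning. Each gene is shown by its probe set with the highest mean, and on these the other family members lie between -0.48 and 0.39.

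Of the 8 other PAQR genes, 1 rose at HF3h and none fell, and none was called at LF3h by limma. In the same fit, 5 of the 8 had an unadjusted p under 0.05 at HF3h and 3 at LF3h. The share of all genes with such a p was not computed, so these 2 counts have no background beside them. Among all genes 2.97% were called higher and 3.7% lower at HF3h, and 3.13% and 2.28% at LF3h, so that 0 or 1 call among 8 genes is near the background. The gene that rose was Paqr7, the membrane progestin receptor alpha. It read 7.30 and 7.11 at HF3h, 6.75 and 6.75 at LF3h, and 6.81 and 6.84 at Fasting, a log2 difference of 0.38 at HF3h (adjusted p = 0.023) and -0.07 at LF3h. HF3h was also above LF3h by 0.45 (adjusted p = 0.02). The calls did not hold without HF3h replicate 1 or without either array of the pool it was set against, with an adjusted p of up to 0.22.

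The adiponectin receptors Adipor1 and Adipor2 had -0.26 and -0.17 at HF3h and -0.16 and -0.27 at LF3h. The other probe set of Adipor2, at a mean of 8.37, had -0.54 at HF3h and -0.37 at LF3h. Paqr8 and Paqr5, further membrane progestin receptors, had -0.04 and 0.21 at HF3h and -0.36 and 0.02 at LF3h. Paqr6 of the same group had 0.39 at HF3h and 0.13 at LF3h, Paqr4 had -0.17 and 0.05, and Paqr3, a Golgi protein, had 0.27 at both. None of these genes passed the test on the probe set that stood for it. Paqr3, Paqr5, Paqr6 and Paqr8 were under 6 in every pool, near the median of the arrays or below it.

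Of 16 Golgi tethers and their partners, 2 rose at HF3h and 1 at LF3h, beside 2.97% and 3.13% of all genes called higher, and none fell. Blzf1, a golgin of the medial Golgi, read 6.72 and 6.76 at HF3h, 7.03 and 6.91 at LF3h, and 6.28 and 6.43 at Fasting, with log2 differences of 0.38 (adjusted p = 0.02) and 0.62 (adjusted p = 0.0011). Only the LF3h call held without each of the 14 arrays in turn, while the HF3h call was lost without Fasting replicate 1 or either HF3h array. Arl1, a GTPase that brings golgins to the trans-Golgi, had 0.38 at HF3h (adjusted p = 0.049), and 11 of the 14 arrays left out in turn ended that call.

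In human cells PAQR9 binds BAG6, a chaperone that guides membrane proteins. Of 6 measured genes of the BAG6 and GET pathway, limma called none at HF3h or LF3h, with differences of -0.19 to 0.34. Among all genes 2.97% were called higher and 3.7% lower at HF3h, and 3.13% and 2.28% at LF3h. No call among 6 genes is therefore near the background. In each of the 2 comparisons 1 of the 6 genes had an unadjusted p under 0.05, and the share of all genes with such a p was not computed. Of 4 genes of other progesterone receptors and their cofactors, 1 was called higher at HF3h and 1 at LF3h, beside 2.97% and 3.13% of all genes. In both comparisons this was Pgrmc2, a haem-binding membrane protein, which rose after both meals. It read 9.69 and 9.66 at HF3h, 9.30 and 9.46 at LF3h, and 9.03 and 9.04 at Fasting. The log2 differences were 0.64 at HF3h (adjusted p = 6e-04, at most 0.0098 with any array left out) and 0.35 at LF3h (adjusted p = 0.037, lost in 8 of the 14 cases, up to 0.3).

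PPARα is the regulator to which both genes have been tied in liver. Of 20 measured genes of PPARα and its targets, 4 rose and 2 fell at HF3h, where 2.97% of all genes were called higher and 3.7% lower, against 0 and 3 at LF3h, where the shares were 3.13% and 2.28%, and the medians were 0.075 and -0.088. Acot1, Plin2, Vnn1 and Fabp1 rose and Ppara and Pdk4 fell at HF3h, while Pdk4, Ppara and Angptl4 fell at LF3h. Rab30 and Paqr9 stood above Fasting in both pools. Compared directly, 7 of the 20 genes were higher and 1, Ppargc1a, was lower at HF3h than at LF3h, beside 1.19% and 1.01% of all genes. Acot1 was under 6 in all pools but HF3h. Apart from Acot1, Pdk4 and Plin2, the genes of this paragraph were named after their values were seen. The call of Pdk4 at HF3h (-0.4, adjusted p = 0.0096) was lost without either Fasting array or HF3h replicate 2, and the count at HF3h was 3 in each of those 3 cases.

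Markers of the mucosa were present. The 9 measured enterocyte markers summed to 82800 to 83200 intensity units at HF3h, 82800 to 83400 at LF3h and 79500 to 80000 at Fasting. Of the 9, none was under a log2 value of 6. Limma called 1 higher at HF3h and 1 lower at LF3h, beside 2.97% and 2.28% of all genes. Transcripts of other tissue differed between the pools. In RNA of whole scrapings, more cells of a type and more RNA per cell cannot be told apart. Summed over 8 stomach and Brunner gland markers, the arrays read 6620 to 6680 at HF3h, 924 to 985 at LF3h and 1130 to 1170 at Fasting, with the highest level at HF30min, 13700 to 13800. At HF3h 5 of these 8 rose, beside 2.97% of all genes, and at LF3h 3 fell, beside 2.28%. Muc5ac, Atp4a and Pgc were under 6 at Fasting, LF3h and HF3h, Gkn3 at Fasting and LF3h, and Gkn1 at LF3h.

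The sum of 7 acinar pancreas markers was 65400 to 65700 at HF3h, 35800 to 36200 at LF3h and 42500 to 42800 at Fasting, with Rbpjl under 6. Limma called 6 of the 7 higher at HF3h, beside 2.97% of all genes, and none at LF3h. The sum of 6 adipocyte markers was 927 to 974 at HF3h, 588 to 635 at LF3h and 538 to 555 at Fasting. Of the 6, 3 were called higher at HF3h and 1 at LF3h, beside 2.97% and 3.13% of all genes. Adipoq, Retn, Lep and Car3 were under 6 in every pool, HF3h included, so only Fabp4 and Cidec lay above that level. Islet markers, with 4 measured, summed to 1530 to 1570 at HF3h, 303 to 326 at LF3h and 777 to 780 at Fasting, with the highest level at HF30min, 2210 to 2270. Of the 4, 2 were called higher at HF3h and 2 lower at LF3h, beside 2.97% and 2.28% of all genes. Gcg was under 6 at Fasting, LF3h and HF3h, and Pcsk1 at Fasting. Paqr9 was as high at LF3h, where the stomach, acinar and islet sums were below Fasting, as at HF3h, where they were above it, while the adipocyte sum was above Fasting in both pools, and the part of these transcripts in the Paqr9 values was not tested. Rab30 was higher at HF3h than at LF3h, as were these sums and the adipocyte sum. Compared directly, 6 of 7 acinar, 5 of 8 stomach and Brunner gland, 2 of 4 islet and 3 of 6 adipocyte markers were called higher at HF3h. None of them was called lower, beside 1.19% of all genes called higher and 1.01% lower. The part of these transcripts in the Rab30 difference was not tested. The adipocyte sum includes Cidec, which was among the genes picked for likeness to Rab30, so the 2 are not independent. Cidec had means of 9.33 at HF3h, 8.65 at LF3h and 8.32 at Fasting. At 1 h, where Paqr9 was the lower in the HF pool, the acinar sum was 61700 at HF1h and 67400 to 68800 at LF1h, the stomach sum was 1570 to 1590 and 2670 to 2690, and their part was not tested either. At HF30min the stomach and islet sums were highest and the acinar sum was lowest, at 23200 to 23600. Rab30 read 8.02 there, a log2 difference of 0.68 from Fasting, and Paqr9 read 6.02, a difference of -0.06. The part of these transcripts in the HF30min values was not tested.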

How the data were processed

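Per the labels and the methods, the authors hybridised 2 Affymetrix MOE 430 v2.0 arrays per pool. Intensities were background-corrected and normalized by RMA, and the deposited log2 values were used as they are (the log base follows from that method, and its version is not given in the sources used here). Of 45101 probe sets, 64 controls were set aside. The annotation named 1 gene for 34945 of the remaining 45037, and 34741 were matched to current symbols by Entrez ID. The probe set with the highest mean stood for a gene.

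For Rab30 and Paqr9, pool means, SDs and differences were computed with no test. For the gene lists, limma 3.58.1 (R 4.3.3) was fitted to all probe sets with 1 mean per pool (7 residual degrees of freedom), with Benjamini-Hochberg adjustment over the probe sets of each comparison. The fit was tested on simulated data. Likeness was Pearson r over 7 pool means, with a highest mean of at least 6 and a range of at least 1. Members and lists were chosen with earlier results of these data known. The genes named are Rab30, Paqr9, the 5 most like each, the 8 other PAQR genes and up to 3 called genes per list with the largest difference at 3 h, and those said to be named after their values were seen. Genes with no singly named probe set, 2 of the BAG6 and GET list and 3 of the PPARα list, were not analysed here. Naming by protein identity and a motif search had been planned and were not run. Alternatives were each array left out in turn, other scaling, averaging over the probe sets of a gene, the replicate number as a block, a 2-fold minimum, an intensity trend, a filter at 6, and other likeness rules. Other marker lists (goblet and Paneth, enteroendocrine, smooth muscle, T cell, B and plasma cell, macrophage, erythrocyte) had at most 1 gene called in each comparison of a 3 h pool with Fasting. Among all genes, 2.97% were called higher and 3.7% lower at HF3h, and 3.13% and 2.28% at LF3h. At HF3h against LF3h, 2 of 6 macrophage and 2 of 5 B and plasma cell markers were called lower, and 1 of 7 goblet and Paneth markers was. The enteroendocrine, smooth muscle, T cell and erythrocyte lists had no call, and 1.01% of all genes were called lower. Figures used Python 3.11.15 and matplotlib 3.10.9.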

Additional observations from a re-analysis of the deposited data

Results flagged for a closer look

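The HF and LF pools differed from each other, by limma's test of that difference, in 4 of the named genes of the lists. Paqr7 was higher at HF3h than at LF3h by 0.45 on the log2 scale (adjusted p = 0.02). Acot1, an acyl-CoA thioesterase, was higher at HF30min than at LF30min by 0.68 (adjusted p = 0.024) and at HF3h than at LF3h by 1.97 (adjusted p = 4.9e-07), and its means at HF30min, LF30min and LF3h were 5.03, 4.35 and 4.3, near the medians of the arrays. Pdk4, a kinase that restrains pyruvate oxidation, was higher at HF1h than at LF1h by 0.48 (adjusted p = 0.034) and at HF3h than at LF3h by 1.87 (adjusted p = 2.2e-08). Plin2, a coat protein of lipid droplets, was higher at HF3h than at LF3h by 0.98 (adjusted p = 2.4e-05). For Rab30 and Paqr9 such differences were not tested. Acot1, Pdk4 and Plin2 had been named for their large called differences from Fasting at 3 h. The same 3 h arrays enter HF3h against LF3h, so that choice favoured the count of 4. Among all genes, 1.19% were called higher and 1.01% lower at HF3h than at LF3h.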

How the results depend on the processing

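With the mean of all probe sets in place of the brightest, the dim Rab30 probe set lowered the log2 differences of Rab30 from Fasting to 0.38, 0.81 and 2.41 at HF30min, HF1h and HF3h and to 0.76 and 1.15 at LF1h and LF3h, and the differences of the HF from the LF pools to 0.39, 0.05 and 1.25 at 30 min, 1 h and 3 h. Those of Paqr9 from Fasting became -0.24, -0.12 and 2.09 at HF30min, HF1h and HF3h and -0.27, 0.7 and 2.11 at LF30min, LF1h and LF3h, so that HF1h turned from 0.06 to below Fasting. With single arrays left out, Rab30 kept 0.56 to 0.79 at HF30min, 1.42 to 1.64 at HF1h, 3.57 to 3.79 at HF3h, 1.23 to 1.45 at LF1h and 1.68 to 1.9 at LF3h, with -0.1 to 0.12 at LF30min, while Paqr9 had -0.02 to 0.14 at HF1h, -0.19 to 0.08 at HF30min, -0.19 to 0.11 at LF30min, -0.16 to 0.13 for HF30min against LF30min and -0.14 to 0.04 for HF3h against LF3h. Centring, quantile normalization and the replicate block moved none of the 18 differences beyond the spread of the arrays.

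Of the list counts in the order HF3h and LF3h against Fasting and HF3h against LF3h, the Rab family (3, 2 and 1) became 10, 4 and 3 with an intensity trend and 10, 7 and 3 with the filter at 6, and ranged over 0 to 4, 0 to 2 and 0 to 1 with an array left out. With averaged probe sets it had 5 at HF3h, and with centred arrays 0 for HF3h against LF3h. The PAQR family (1, 0 and 1) had 3 at HF3h and 1 at LF3h with the trend and with the filter, 2 and 1 with averaged probe sets, and 0 to 1 at HF3h and for HF3h against LF3h with an array left out. The Golgi tethers (2, 1 and 0) had 4 and 3 with the trend, 4 at HF3h with the filter, 1 at HF3h with centring, 1 and 2 with averaged probe sets, and 0 to 2 at HF3h with an array left out. The progesterone list (1, 1 and 0) had 1 for HF3h against LF3h with the trend or the filter, and 0 to 1 at LF3h with an array left out. The PPARα list (6, 3 and 8) had 10 and 9 with the trend, 10 and 8 with the filter, and 3 to 6 at HF3h and 4 to 8 for HF3h against LF3h with an array left out. A 2-fold minimum left 3, 1 and 2 PPARα genes and 0 of each other list. The causes were not tested.

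The replicate numbers did not pair the arrays, since deviations of same-numbered arrays correlated at -0.187 to 0.151 over 21 pairs of pools. With the replicate block, the Rab count was 1 at LF3h and 0 for HF3h against LF3h, and the other 16 list counts stayed within 1.5 times.

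Of the 5 genes most like Rab30, 2 remained with a minimum range of 0.6, 3 with averaged probe sets and 4 to 5 with an array left out. Of those most like Paqr9, 1 remained with that range, 1 with Spearman's rho, 3 with averaged probe sets and 3 to 5 with an array left out. One pool per condition limits every value, since no difference between mice can be estimated, and all comparisons with Fasting share its 2 arrays. Probe sets under 6 lie near background, where differences are compressed. For Paqr9, 1455025_at was under 6 at LF30min (5.75), HF30min (5.82) and HF1h (5.95). The other probe set, 1436169_at, was just above 6 at Fasting, both 30 min pools and HF1h, with means of 6.02 to 6.13. Its fold values over Fasting thus start close to that level.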
